A study of Mus musculus with 6 samples.

Results

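The genes described here encode the cargo of neutrophil granules. They are 10 genes, chosen by name from 3 classes of granule, of 12393 genes measured: Mpo, Elane, Prtn3 and Ctsg for primary granules, Ltf, Camp, Ngp and Lcn2 for secondary granules, and Mmp8 and Mmp9 for granules filled later. Every probe set of the Affymetrix Mouse430a array whose annotation gives exactly 1 of these symbols was taken, which gave 11 probe sets, since Mmp9 has 2. No filter on signal was set, so all 11 entered the test. The genes were chosen with earlier results of these data known. The arrays measured 6 samples of CD4+CD25+ T cells, the surface markers by which regulatory T cells are usually sorted. In the first group 3 samples had the genotype HDAC3-fl/fl_FOXP3cre, a floxed Hdac3 gene with a Cre recombinase named for Foxp3, and these are called Hdac3 deleted here. The other 3 were wild type. Both groups were on the C57BL6 background, and the labels used here give no age and do not say whether samples came from separate animals or from pools, so each p-value reflects only how much the arrays of a group differed, which could be technical variation alone. Foxp3 marks regulatory T cells, so a Cre of that name is meant to act in those cells.

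Values are log2 expression per probe set after robust multiarray averaging (RMA), which usually gives all arrays a common distribution. The deposited arrays did not share one exactly, with medians of 6.43 to 6.47 in Hdac3 deleted and 6.28 to 6.29 in wild type samples. Differences are on that log2 scale, taken as Hdac3 deleted minus wild type. Signal between 2.37 and 5.16, the range of 27 control probe sets for Bacillus subtilis transcripts over the 6 samples, counts as background. Where the wild type mean lay in that range, a fold counted from its top, 5.16, is written "at least". A probe set is called higher or lower at a Benjamini-Hochberg adjusted p below 0.05 over all 22626 probe sets together with at least a 2-fold difference, tested with limma.

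The targeted gene and the cell type labels were read first. Hdac3 measured 8.46, 8.51 and 8.50 in the Hdac3 deleted samples, against 9.07, 9.04 and 9.01 in wild type. It was thus lower on the deposited scale but present, and the sources used here do not place this probe set inside or outside the deleted exons. The probe set is marked as matching more than 1 transcript, so its signal may include other transcripts. The title and genotype name HDAC3, while the source field of the same samples names HDAC11 and their description HDACII. Hdac11 itself was at 4.88, 4.74 and 5.04 in the Hdac3 deleted samples, against 5.41, 5.54 and 5.46 in wild type, near the top of the background range. Foxp3 lay in the background range in both groups, at 3.68 ± 0.153 in Hdac3 deleted and 3.77 ± 0.291 in wild type samples (SD, n = 3 each), so the regulatory T cell label could not be read from it, while Il2ra, which encodes CD25, was well above background, averaging 9.96 in Hdac3 deleted and 9.25 in wild type samples. Pairs of Hdac3 deleted arrays correlated at 0.997 to 0.998 and pairs of wild type arrays at 0.996 to 0.997 (Pearson, across probe sets), while pairs from different groups correlated at 0.921 to 0.923.

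Neutrophils store antimicrobial proteins and proteases in granules that are filled one class after another while the cells mature in bone marrow. Primary, or azurophil, granules form in promyelocytes and hold myeloperoxidase and the serine proteases, secondary granules form in myelocytes and metamyelocytes, and gelatinase granules form last. The mRNAs follow the same order, so primary granule transcripts are known as markers of immature granulocytes in bone marrow and are low in mature blood neutrophils.

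Genes of all 3 granule classes had much more signal in Hdac3 deleted than in wild type samples. All 11 probe sets were called higher and none lower, where 7.91% of all probe sets were called higher. In each of the 11 the lowest Hdac3 deleted sample lay above the highest wild type sample, by 2.60 to 7.36 log2, a separation in that direction that 22.3% of all probe sets showed. Since the genes were chosen with earlier results known, these shares over all probe sets are a background and not a test. The median difference was 6.29 over the 11 probe sets and -0.17 over all 22626. In these bulk samples a change in the number of cells that make a transcript and a change in its amount per cell cannot be told apart.

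**Figure D1:**
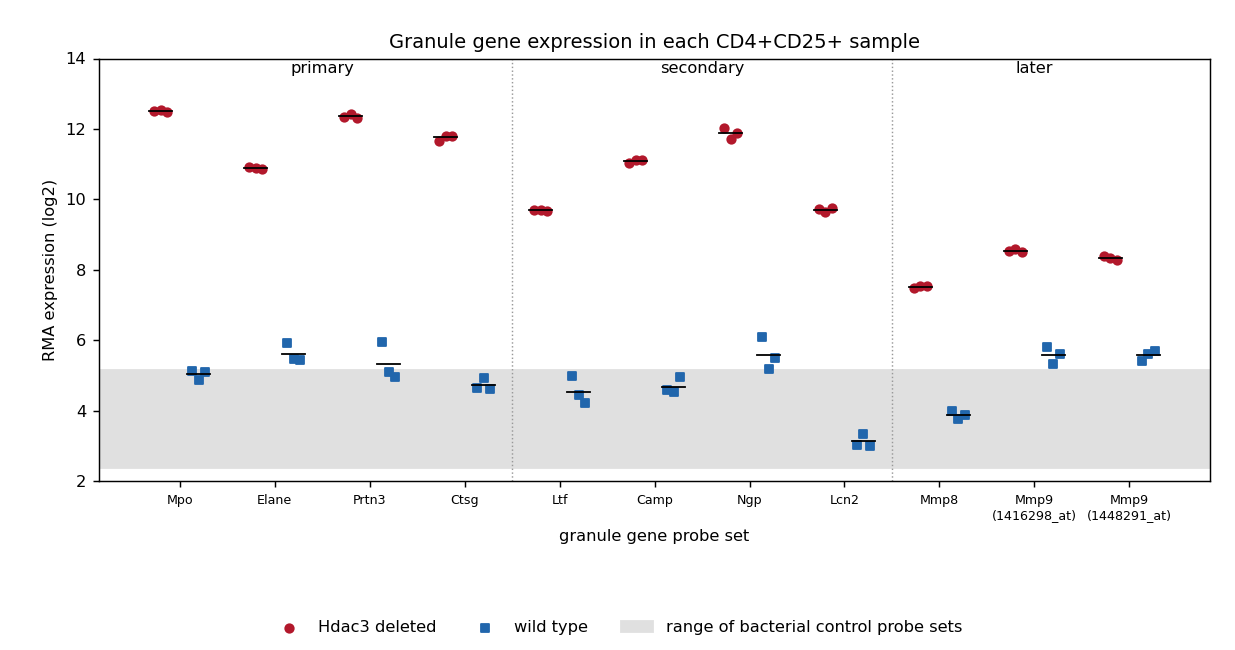
Log2 RMA expression (vertical axis) of the 11 granule gene probe sets (horizontal axis) in the 3 Hdac3 deleted samples (red circles, left of each pair) and the 3 wild type samples (blue squares), with group means as black bars and the range of the bacterial control probe sets, 2.37 to 5.16, in grey. Hdac3 deleted samples lie above that range for every probe set, while 6 of the 11 wild type means lie inside it.

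The primary granule genes are taken first. Mpo encodes myeloperoxidase, which makes hypochlorous acid from hydrogen peroxide and chloride. It measured 12.50, 12.53 and 12.49 in the Hdac3 deleted samples, against 5.13, 4.88 and 5.09 in wild type, where every value lay in the background range. The Hdac3 deleted values lay within 0.04 of each other and far above the control range. Mpo was at least 163-fold higher (difference 7.47, SE 0.080, adjusted p = 3.45e-09), and 0.146% of all probe sets had a larger measured difference.

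Elane, Prtn3 and Ctsg encode the 3 serine proteases of primary granules, neutrophil elastase, proteinase 3 and cathepsin G. Prtn3 measured 12.33, 12.42 and 12.31 in the Hdac3 deleted samples, against 5.94, 5.08 and 4.95 in wild type, a measured difference of 7.03 (SE 0.242, adjusted p = 5.04e-07). Wild type sample 1 stood above the other two, which lay in the background range, so no fold is given, and all 3 were far below the Hdac3 deleted samples. Elane measured 10.91, 10.90 and 10.87 in the Hdac3 deleted samples, against 5.93, 5.47 and 5.43 in wild type. Those wild type values were just above the control range, and the difference of 5.28 (SE 0.133, adjusted p = 1.04e-07) amounts to 38.9-fold. Ctsg measured 11.67, 11.81 and 11.80 in the Hdac3 deleted samples, against 4.63, 4.93 and 4.61 in wild type. It was at background in every wild type sample and at least 97.2-fold higher in the Hdac3 deleted samples (difference 7.03, SE 0.099, adjusted p = 8.33e-09).

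The promoters of these 4 genes are shown because they moved together and share a short motif. The sequences are the 250 bases before each RefSeq gene start on GRCm38.p6, read 5′ to 3′ on the strand of the gene, with motif matches in capitals. Mpo lies at chr11:87793534-87793783 on the plus strand, Elane at chr10:79886062-79886311 on the plus strand, Prtn3 at chr10:79879417-79879666 on the plus strand and Ctsg at chr14:56102575-56102824 on the minus strand.
Mpo: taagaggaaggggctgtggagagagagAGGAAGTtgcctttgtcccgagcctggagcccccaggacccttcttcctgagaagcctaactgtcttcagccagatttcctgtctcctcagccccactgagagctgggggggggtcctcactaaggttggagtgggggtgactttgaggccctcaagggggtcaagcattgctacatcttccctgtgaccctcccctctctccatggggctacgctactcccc
Elane: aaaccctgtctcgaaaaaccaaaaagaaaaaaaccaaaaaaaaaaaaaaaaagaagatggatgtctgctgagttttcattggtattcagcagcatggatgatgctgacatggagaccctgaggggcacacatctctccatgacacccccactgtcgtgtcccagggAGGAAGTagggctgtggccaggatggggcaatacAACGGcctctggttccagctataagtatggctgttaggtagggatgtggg
Prtn3: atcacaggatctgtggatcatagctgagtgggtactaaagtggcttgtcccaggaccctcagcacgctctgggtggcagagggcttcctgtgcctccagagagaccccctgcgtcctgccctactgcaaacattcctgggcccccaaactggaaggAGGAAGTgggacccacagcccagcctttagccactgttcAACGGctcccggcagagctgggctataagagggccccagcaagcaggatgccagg
Ctsg: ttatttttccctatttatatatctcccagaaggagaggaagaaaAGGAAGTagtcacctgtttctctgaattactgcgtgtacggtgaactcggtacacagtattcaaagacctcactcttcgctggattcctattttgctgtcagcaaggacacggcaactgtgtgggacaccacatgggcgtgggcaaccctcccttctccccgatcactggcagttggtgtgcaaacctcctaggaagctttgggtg
Each of the 4 holds AGGAAGT, the core recognised by the myeloid factor PU.1 and by other factors of the ETS family, starting 223 bases before the gene start in Mpo, 84 in Elane, 94 in Prtn3 and 206 in Ctsg. Elane and Prtn3, which are adjacent genes in RefSeq, also hold AACGG, a core of MYB sites, at 50 and 55 bases. The motifs were chosen with the promoters in view and searched on both strands, and no match overlapped another. Of all 32851 RefSeq promoter windows of this length, 7.69% held AGGAAGT and 14.5% held AACGG.

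The secondary granule genes were higher as well. Camp encodes cathelicidin, the precursor of an antimicrobial peptide, and measured 11.04, 11.13 and 11.12 in the Hdac3 deleted samples, against 4.59, 4.52 and 4.95 in wild type. Every wild type value lay in the background range. Camp was at least 61.4-fold higher (difference 6.41, SE 0.115, adjusted p = 2.31e-08). Ngp, neutrophilic granule protein, has the cathelin fold of the cathelicidin precursors. It measured 12.03, 11.70 and 11.89 in the Hdac3 deleted samples, against 6.10, 5.17 and 5.49 in wild type. The lowest of these wild type values was barely above the control range. Ngp had the widest spread of the 11 among Hdac3 deleted samples (SD 0.162). Its measured difference of 6.29 (SE 0.223, adjusted p = 5.85e-07) equals 78.2-fold.

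Lcn2 and Ltf both deprive bacteria of iron, Lcn2 (lipocalin 2) by binding bacterial siderophores and Ltf (lactoferrin) by binding the metal itself. Lcn2 measured 9.74, 9.65 and 9.74 in the Hdac3 deleted samples, against 3.02, 3.34 and 3.00 in wild type. Its wild type values were the lowest of the 11 probe sets and lay deep in the background range, so that a measured difference of 6.58 (SE 0.101, adjusted p = 1.17e-08) gives a bound of at least 23.5-fold. Ltf measured 9.71, 9.70 and 9.66 in the Hdac3 deleted samples, against 4.97, 4.44 and 4.21 in wild type. It too was at background in every wild type sample and at least 23.2-fold higher in the Hdac3 deleted samples (difference 5.15, SE 0.179, adjusted p = 5.35e-07).

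Promoters of Ltf, at chr9:111019042-111019291 on the plus strand, and Ngp, at chr9:110419558-110419807 on the plus strand, are shown in the same way for contrast with the primary class.
Ltf: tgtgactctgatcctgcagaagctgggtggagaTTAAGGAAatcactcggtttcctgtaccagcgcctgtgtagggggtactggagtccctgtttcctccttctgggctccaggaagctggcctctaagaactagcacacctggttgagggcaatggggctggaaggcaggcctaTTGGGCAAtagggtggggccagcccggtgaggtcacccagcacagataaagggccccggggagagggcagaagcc
Ngp: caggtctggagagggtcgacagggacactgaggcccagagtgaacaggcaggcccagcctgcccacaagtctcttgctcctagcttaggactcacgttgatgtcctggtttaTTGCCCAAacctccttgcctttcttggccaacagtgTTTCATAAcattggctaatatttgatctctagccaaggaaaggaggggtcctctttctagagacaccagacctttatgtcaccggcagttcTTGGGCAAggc
Neither holds AGGAAGT or AACGG in this window, and neither do Camp and Lcn2. The capitals here are matches to TTNNGNAA, a form of the site bound by C/EBP factors, which occurred 2 times in Ltf, 3 times in Ngp and 1 time in Lcn2, and not in the windows of Camp or the 4 primary granule genes. This form is common, being held by 36.8% of all windows. Mmp8 held 1 AGGAAGT and 2 TTNNGNAA matches. In all, 5 of the 9 member promoters in the table held AGGAAGT, 2 held AACGG and 4 held TTNNGNAA, and Mmp9 had no entry.

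**Figure D2:**
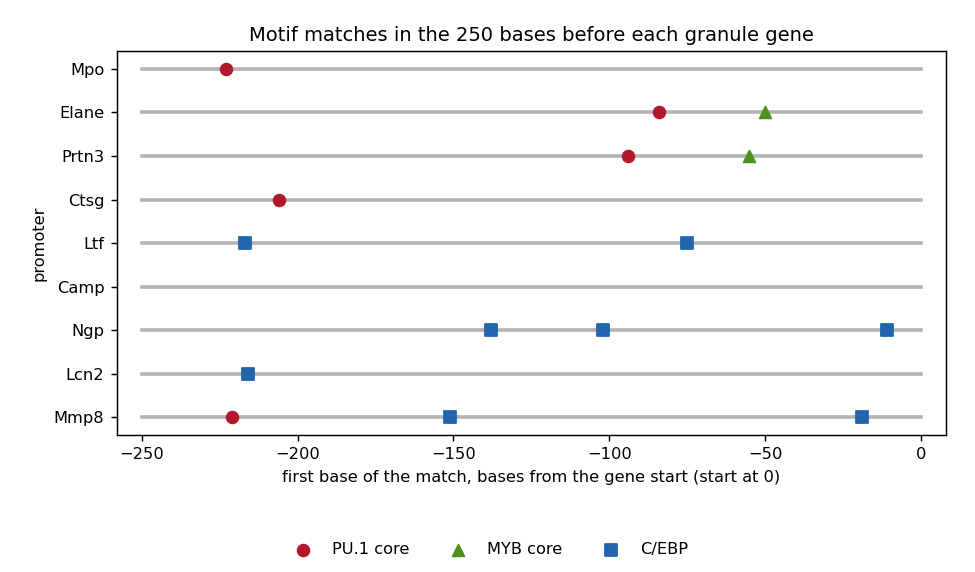
Positions of motif matches (horizontal axis, bases from the gene start at 0) in the 250 bases before 9 granule genes (vertical axis), with AGGAAGT (PU.1 core) as red circles, AACGG (MYB core) as green triangles and TTNNGNAA (C/EBP) as blue squares. Matches to AGGAAGT lie in the 4 primary granule genes and Mmp8, and those to TTNNGNAA in Ltf, Ngp, Lcn2 and Mmp8.

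The later granule genes were higher by less on the measured scale. Mmp8 encodes neutrophil collagenase. It measured 7.49, 7.52 and 7.53 in the Hdac3 deleted samples, against 3.98, 3.77 and 3.86 in wild type, all 3 of the last in the background range. Mmp8 was at least 5.13-fold higher (difference 3.65, SE 0.071, adjusted p = 3.35e-08). Mmp9 encodes gelatinase B, which macrophages also make. One of its probe sets measured 8.52, 8.59 and 8.50 in the Hdac3 deleted samples, against 5.81, 5.33 and 5.62 in wild type. The other measured 8.39, 8.33 and 8.28 in the Hdac3 deleted samples, against 5.41, 5.61 and 5.68 in wild type. Both sets lay just above background in wild type and did not overlap between groups. They differed by 2.95 (95% interval 2.67 to 3.24, adjusted p = 1.18e-06) and by 2.77 (2.57 to 2.97, adjusted p = 2.81e-07), that is 7.73-fold and 6.81-fold, and these intervals overlap.

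The measured differences ran from 5.28 to 7.47 in the primary class, from 5.15 to 6.58 in the secondary class and from 2.77 to 3.65 in the later class, with medians of 7.03, 6.35 and 2.95. Measured sizes can be compared directly only where every sample of both groups lay above background, which held for Ngp, Elane and Mmp9. Among these, Ngp (95% interval 5.76 to 6.82) lay above Elane (4.97 to 5.59), and Mmp9 lay below Elane in both probe sets. Mean wild type levels of these 3 genes were within 0.5 log2 of the top of the control range, so their true differences may be larger than measured. Their order, and any order set against them, therefore holds for the measured values only. On that scale a lower bound can also place a gene above another. The bounds of Mpo (7.35), Ctsg (6.60) and Camp (5.94) lay above the Elane interval, and that of Mpo also above the Ngp interval. Ltf had the lowest bound of the secondary class, 4.53, which lay above both Mmp9 intervals. Mmp8, with a bound of 2.36, could not be placed against Mmp9. These bounds carry no interval. The difference between classes was not tested.

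**Figure D3:**
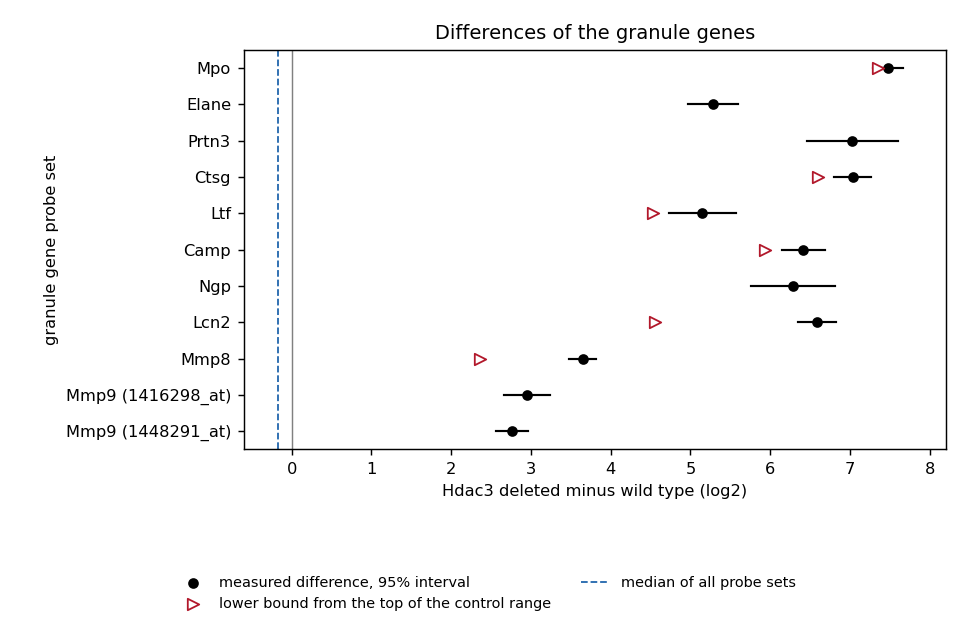
Difference in log2 expression, Hdac3 deleted minus wild type (horizontal axis), of the 11 granule gene probe sets (vertical axis), as black points with 95% intervals from limma, with lower bounds from the top of the control range as open red triangles where wild type was at background, and the median of all probe sets, -0.17, as a dashed line. The 3 probe sets of the later class lie between 2.77 and 3.65, and the other 8 between 5.15 and 7.47.

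The members varied little among Hdac3 deleted samples, with a median SD of 0.047 over the 11 probe sets, beside 0.230 among wild type samples. Over all probe sets the median SD was 0.089 in Hdac3 deleted and 0.103 in wild type samples, and it was 0.148 in wild type for the 8224 probe sets whose wild type mean was in or below the control range. No such reference of equally bright probe sets was taken for Hdac3 deleted samples, so the low spread cannot be separated from signal level. No Hdac3 deleted sample stood apart over the members, since sample 1 was the highest in 4, sample 2 in 5 and sample 3 in 2 of the 11. In wild type, sample 1 was the highest in 7 of the 11, most clearly for Ngp and Prtn3. Without that sample the differences of Ngp and Prtn3 were 6.54 and 7.34.

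Other granule genes were read from 3 further lists, counted with 1 probe set per gene, where 9.04% of all genes were called higher and 4.46% lower. Of 5 other primary granule genes measured 4 were called higher. They were Lyz1 and Lyz2, the lysozymes, with differences of 7.74 and 7.04, Ms4a3, a marker of granulocyte and monocyte progenitors, at least 30.7-fold higher, and Ctsc, at 3.46. Ctsc encodes the dipeptidyl peptidase that activates Elane, Prtn3 and Ctsg, and it was already well above background in wild type, measuring 13.33, 13.31 and 13.29 in the Hdac3 deleted samples, against 9.76, 9.97 and 9.82 in wild type. Lyz1 and Lyz2 are near-identical copies whose probe sets may share signal, a further Lyz1 probe set lay at background in both groups, and lysozyme is also a macrophage product.

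Of 11 other secondary granule genes 8 were called higher, among them Chil3 (at least 139-fold), Hp, which encodes haptoglobin (at least 27.0-fold), Anxa3 (at least 21.9-fold) and the neutrophil surface protein Cd177 (at least 4.73-fold). Orm1, another of the 8, lay in the background range in both groups, so its direction is not readable. Of 8 other tertiary granule and secretory vesicle genes 4 were called higher. These were the formyl peptide receptor Fpr2 (at least 85.9-fold), the phagosomal metal transporter Slc11a1 (66.6-fold), the lipopolysaccharide coreceptor Cd14 (at least 28.2-fold) and Clec5a (at least 1.16-fold). None of these lists held a gene called lower. Median differences were 5.56, 3.55 and 1.59 for the 3 lists, beside 7.48 for the 12 monocyte and macrophage markers read below. The part of macrophages in the values of these lists was not tested.

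Inhibitors of the granule proteases were called higher in 4 of 8 measured genes and lower in none. Wfdc21 was at least 15.0-fold higher. Serpinb1a, which encodes an inhibitor of elastase, proteinase 3 and cathepsin G, measured 8.85, 8.79 and 8.69 in the Hdac3 deleted samples, against 4.50, 4.16 and 4.44 in wild type, at least 12.3-fold higher. Slpi, the secretory leukocyte protease inhibitor, and Stfa3, a stefin of cysteine cathepsins, differed by 2.37 and 1.87. The metalloproteinase inhibitors Timp1, Timp2 and Timp3 were not called, and Timp1 and Timp3 lay in the background range in both groups.

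Of 9 measured regulators of granule genes 5 were called higher and none lower. Cebpe, also in the list, was not measured. Spi1, which encodes PU.1, measured 9.90, 10.09 and 9.99 in the Hdac3 deleted samples, against 4.94, 5.22 and 4.88 in wild type, at least 28.5-fold higher (adjusted p = 4.26e-08). Cebpa, needed for the granulocyte lineage, differed by 2.47, Cebpb by 2.97 and Myb by 1.40, and Cebpd was at least 6.55-fold higher, although another Cebpd probe set differed by 0.58 and was not called. Gfi1, a repressor required for neutrophil maturation, measured 7.65, 7.72 and 7.49 in the Hdac3 deleted samples, against 8.43, 8.56 and 8.47 in wild type. Its difference of -0.87 (adjusted p = 8.08e-05) was under 2-fold, and with median centring it was called lower at -1.03. Cbfb, Runx1 and Cebpg differed by -0.41, -0.29 and 0.11 and were not called.

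**Figure D4:**
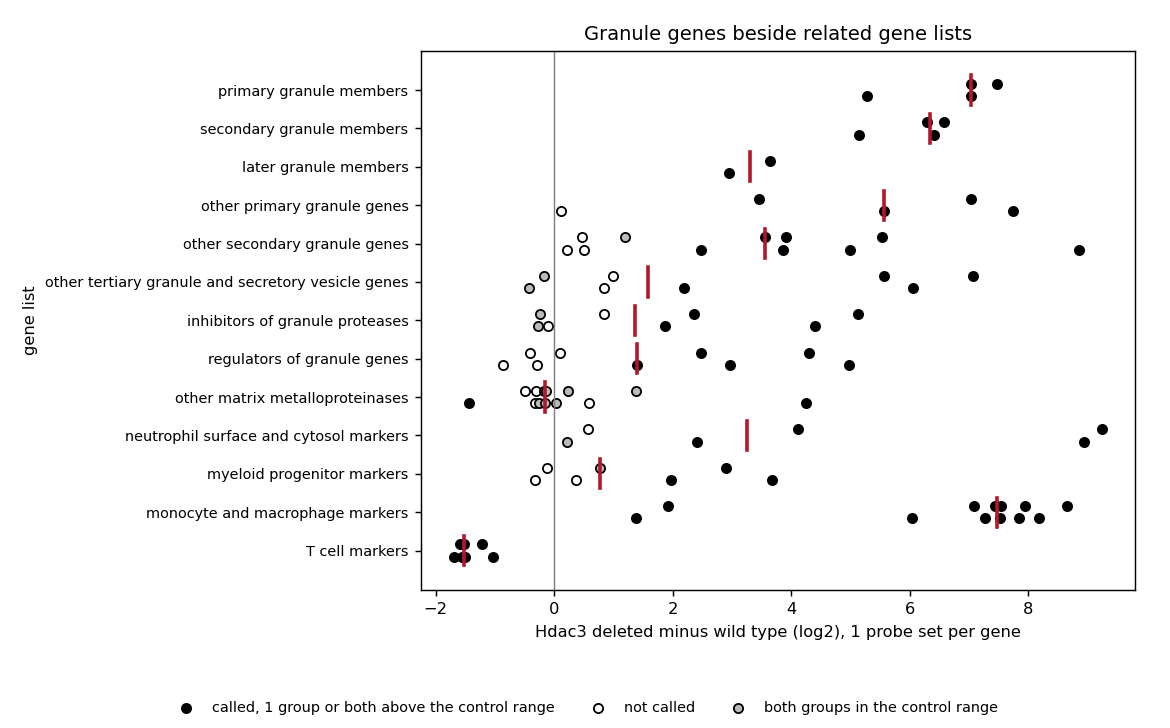
Difference in log2 expression, Hdac3 deleted minus wild type (horizontal axis), for each measured gene of the granule classes and related lists (vertical axis), with 1 probe set per gene and list medians as red bars. Filled points were called, open points were not, and grey points lay in the control range in both groups. All 12 macrophage markers lie to the right of 0 and all 7 T cell markers to the left of it.

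Of 13 other matrix metalloproteinase genes measured, 2 were called higher and 1 lower, with a median difference of -0.15. Mmp14, a membrane-bound collagenase, differed by 4.24. Mmp13 was called while in the background range in both groups, and Mmp11 was at least 1.76-fold lower. Mmp19 was counted as not called from the probe set with its higher mean (difference 0.59), but its other probe set was called higher (difference 2.90, at least 2.05-fold).

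Genes next to the members were also read, taking the nearest 2 protein-coding genes on each side in RefSeq order. Of 26 such neighbours measured, members aside, 2 were called higher and none lower, a share close to the 9.04% of all genes called higher, and their median difference was -0.05. The 2 were Mcpt8, a basophil protease gene beside Ctsg, at least 3.00-fold higher, and Ccrl2, a chemerin-binding receptor gene beside Ltf, 3.10-fold higher. Lpo, the lactoperoxidase gene beside Mpo, was at background in both groups, at 3.69 in Hdac3 deleted and 3.82 in wild type samples. The Ctsg neighbours Gzme, Gzmd and Mcpt4 and the Mmp8 neighbours Mmp1a, Mmp10 and Mmp20 also lay at or below the top of the control range in both groups.

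Each member's profile was set against all other genes, after centring each gene on its own wild type mean, by the root mean square distance over the 6 samples. With 2 groups this measure mainly reflects the size of the difference. Where wild type samples of the member or of its nearest gene lay at background, that size is only a bound, so which gene is nearest cannot be read from the distance. This was so for every pair given here except Elane with Il18, and the others describe measured values only. On the measured scale the gene nearest to Mpo was Fcgr3 (distance 0.039 log2). The nearest to Prtn3 was Fpr2 (0.064), to Ctsg Fcer1g (0.115), to Camp Slc40a1 (0.054), to Lcn2 Cadm1 (0.080) and to Ngp Ifitm6 (0.238). Elane was nearest to Il18 (0.106) and Ltf to Elane (0.122), while Mmp8 was nearest to Tmem106a (0.069) and Mmp9 to Ppfibp2 (0.038).

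Markers of several cell types differed between the same samples. Of 6 measured neutrophil surface and cytosol markers 4 were called higher, namely S100a8, S100a9, Trem3 and Csf3r, the receptor for granulocyte colony-stimulating factor, which measured 8.42, 8.37 and 8.37 in the Hdac3 deleted samples, against 6.37, 5.99 and 5.59 in wild type. Cxcr2, the chemokine receptor of mature neutrophils, chosen here after its values were seen, measured 5.41, 5.14 and 5.40 in the Hdac3 deleted samples, against 4.64, 4.99 and 4.60 in wild type, close to background in both groups, and it was not called. Trem1 lay in the background range in both. The log2 of the summed linear signal of the 6 genes was 14.1 to 14.2 in Hdac3 deleted and 7.02 to 7.57 in wild type samples. S100a8 and S100a9, averaging 13.10 and 13.05, made up most of the Hdac3 deleted sum. In wild type only Csf3r averaged above background. The median difference of the 6 genes was 3.26.

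Of 7 myeloid progenitor markers 3 were called higher, with Cd93 at least 5.24-fold, Kit at least 2.08-fold and Cd34 at least 1.25-fold higher, though a further Kit probe set and a further Cd93 probe set lay at background in both groups. Hoxa9 was counted as not called (difference -0.33), while its other probe set was called higher (difference 1.89, at least 1.61-fold). The summed signal of these 7 was 8.95 to 9.18 in Hdac3 deleted and 7.88 to 8.10 in wild type samples. All 12 measured monocyte and macrophage markers were called higher, among them C1qb, Mrc1, Cd5l and C1qc, and their summed signal was 16.6 to 16.7 in Hdac3 deleted and 9.44 to 9.60 in wild type samples. Ccr2 was counted from its brightest probe set, and further Ccr2 probe sets differed by 0.61 and 0.26 and were not called. All 7 T cell markers were called lower, Cd28, Cd247, Cd3g and Lat by the most, with a summed signal of 13.4 to 13.5 in Hdac3 deleted and 14.8 to 14.9 in wild type samples. Cd4 was close to the threshold (difference -1.02). It was not called without wild type sample 1 or without Hdac3 deleted sample 1, nor was its other probe set (-0.96). A further Cd247 probe set lay at background in both groups. The part of these other cell types in the granule gene differences was not tested.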

How the data were processed

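Total RNA of 6 mouse CD4+CD25+ T cell samples was hybridised to Affymetrix Mouse430a arrays. RMA normalisation was done by the authors, per the labels' design text, with MAYDAY 2.12, and the table they deposited holds 1 log2 value for each probe set and array. RMA hides changes in total RNA per cell, and the number of arrays limits the precision. Of 22690 probe sets, 64 control sets were left out. By the platform annotation 20380 of the other 22626 had 1 gene symbol, 691 several and 1555 none. A gene in a list was represented by its probe set with the highest mean over the 6 samples.

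The sample titles gave the groups. The 2-sided test was limma's moderated one (version 3.58.1, R 4.3.3), fitted to all probe sets with Benjamini-Hochberg adjustment, in place of the Student's test of the series design text. The fit was checked on simulated data. Tables and plots used Python 3.11.15, pandas 2.3.3 and matplotlib 3.10.9. Promoters came from RefSeq (GRCm38.p6), where 9 of the 10 genes had an entry.

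Every granule gene is named. Of each other list all members are counted and at most 4 called members with the largest differences are named, with all regulators, and for each granule gene the 3 closest profiles were found. The granule genes and lists were chosen with earlier results of these data known, and the motifs with the promoters in view. Alternatives were the methods' t-test, replicate number as a block, 3 other normalizations, 2 filters on dim probe sets, a trended robust prior, dropping 1 sample at a time, calling at 1.5-fold, dropping probe sets marked as matching more than 1 transcript, and values relative to the CD3 genes.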

Additional observations from a re-analysis of the deposited data

How the results depend on the processing

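The 11 granule gene probe sets were called higher, and none lower, under all 17 alternatives. None of the 187 differences under them changed direction or its side of the thresholds. Several alternatives could not change a difference: the t-test, replicate block, 2 filters, robust prior, 1.5-fold threshold and dropping of multiply matching probe sets. The 1.5-fold threshold could not lose a call either. The 6 probe sets with a wild type mean at background passed the filter on background only through their Hdac3 deleted values. The other filter, on the mean over all samples, counted those Hdac3 deleted values too, so passing either filter adds no support. Apart from values relative to the CD3 genes, no difference moved by more than 0.31 log2, and the highest adjusted p was 0.0004, with the methods' t-test for Mmp9. Relative to the mean of the 4 CD3 genes every difference was higher by 1.47, so that Mpo was at 8.94. Hdac3 itself then differed by 0.91, against -0.55 on the deposited scale, so its direction depended on the scale. The count over all probe sets was 1790 higher and 979 lower, that is 64.6% higher. It was 1568 and 1523 (50.7%) with median centring, 2140 and 609 (77.8%) with cyclic loess, 2784 and 3057 at 1.5-fold, and 18264 and 34 relative to the CD3 genes, a scale that moves the median of all probe sets from -0.17 to 1.30. With cyclic loess that median was 0.00, and with median centring -0.33. Leaving out 1 sample at a time gave 11 granule probe sets higher in each case, and 1759 to 1821 higher and 935 to 1035 lower over all. No pairing by replicate number was seen. Deviations of same-numbered samples correlated at 0.09, 0.08 and -0.19, and those of differently numbered samples at -0.25 to 0.21. With 3 samples per group this check could not exclude pairing. With the replicate block the calls were 11 granule probe sets higher and 0 lower, and 1790 higher and 979 lower over all. Of the T cell markers 5 of 7 were called lower with cyclic loess and 0 relative to the CD3 genes. The 8 other tertiary granule and secretory vesicle genes had 4 called higher, but 6 with cyclic loess and 8 relative to the CD3 genes. For the 8 protease inhibitors these counts were 4, 5 and 8. Signal near background limits the size of every fold given as "at least". The folds of Ngp, Elane and Mmp9, whose wild type levels lay just above background, may be too small as well.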

Other observations

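Genes of eosinophils and of mast cells and basophils, many of them for granule proteins, were read beside the neutrophil ones. Of 5 measured eosinophil markers 4 were called higher and none lower, and 3 with median centring. Prg2, which encodes eosinophil major basic protein, measured 8.61, 8.50 and 8.21 in the Hdac3 deleted samples, against 4.21, 4.05 and 3.35 in wild type, at least 9.74-fold higher (limma adjusted p = 2.95e-06). Epx, eosinophil peroxidase, measured 7.33, 7.27 and 7.17 in the Hdac3 deleted samples, against 4.03, 3.84 and 4.31 in wild type, at least 4.29-fold higher (adjusted p = 8.22e-07). Ccr3 was at least 1.08-fold higher, Siglecf was called while in the background range in both groups but not with median centring (0.99) or without Hdac3 deleted sample 2 (0.95), and Il5ra was not called and lay in that range.

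Of 7 mast cell and basophil markers 2 were called higher and none lower. Mcpt8 measured 6.70, 6.77 and 6.75 in the Hdac3 deleted samples, against 4.78, 4.51 and 4.34 in wild type. Cpa3, mast cell carboxypeptidase, was at least 1.74-fold higher (difference 1.08) and was not called with median centring (0.92). The other 5, Cma1, Mcpt4, Tpsb2, Fcer1a and Ms4a2, lay in the background range in both groups. Of 4 erythroid markers Epor was called higher, by 1.76, and the haemoglobin gene Hba-a1 lay in the background range in both groups.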
